A study of Mus musculus with 37 samples.

Results

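Distal ATAC-seq peaks are the open chromatin sites of the germinal vesicle (GV) oocyte that lie in gene deserts and other stretches without a listed gene. A peak was taken as distal when its summit lay on chromosomes 1 to 19 and more than 50 kb from the span of every gene in the RNA-seq table of ZH GV oocytes (a line with floxed Hira and Zp3-Cre), which holds 23982 autosomal genes, pseudogenes and non-coding RNAs. The rule uses positions only, and it kept 45624 of the 303753 autosomal peaks of 6 libraries (316630 peaks on all chromosomes). ATAC-seq, in which Tn5 transposase cuts accessible DNA, was performed on GV oocytes of C57BL/6 mice that carry Zp3-Cre, a recombinase driven by the promoter of an oocyte gene, and floxed alleles of Cabin1, a subunit of the Hira complex that deposits the histone variant H3.3. CabZ Het females had 1 floxed and 1 intact Cabin1 allele and CabZ KO females had floxed alleles only, females of both genotypes were given PMSG, and there were 3 libraries (A, B and C) per genotype. Each library came from pooled oocytes, the number of animals in a pool is not given in the sources used here, and p-values therefore measure the spread between pools.

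Gene deserts are long stretches of the genome with few or no genes. They can hold enhancers that act on a gene far away, insulator sites bound by the zinc finger protein CTCF, and large numbers of transposon copies. A fully grown oocyte is transcriptionally silent with condensed chromatin, and transcription factors such as NOBOX, a homeobox protein, drive its earlier growth programme.

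The distal peak with the highest signal in every library lay on chromosome 3, and its sequence and those of other leading distal sites are given first because the values below turn on them. Each line holds 121 bases of the forward strand of GRCm38 around the summit. Capitals mark letters searched for on both strands, namely CCACNAGGG (the core of the CTCF site), TAATTG (the NOBOX type) and CCAAT (the CCAAT box, ATTGG on the other strand). TAATTG and ATTGG can overlap.
Strongest site in all 6 libraries, chr3:5860590-5860710: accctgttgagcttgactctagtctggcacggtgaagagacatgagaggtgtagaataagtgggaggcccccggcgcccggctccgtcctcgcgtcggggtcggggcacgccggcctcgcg
Next site by signal, chr13:12875746-12875866: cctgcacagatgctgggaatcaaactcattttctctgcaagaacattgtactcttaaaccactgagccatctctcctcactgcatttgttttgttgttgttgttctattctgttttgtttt
Site of the RefSeq long non-coding RNA Gm31870, chr1:193723665-193723785: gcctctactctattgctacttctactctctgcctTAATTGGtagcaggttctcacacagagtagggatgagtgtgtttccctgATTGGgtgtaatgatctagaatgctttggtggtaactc
Strongest site of the 3 CabZ Het libraries only, chr1:32036285-32036405: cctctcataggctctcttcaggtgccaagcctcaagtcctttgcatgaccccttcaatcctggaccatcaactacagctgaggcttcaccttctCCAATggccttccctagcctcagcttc
Strongest site of the 3 CabZ KO libraries only, chr8:44547932-44548052: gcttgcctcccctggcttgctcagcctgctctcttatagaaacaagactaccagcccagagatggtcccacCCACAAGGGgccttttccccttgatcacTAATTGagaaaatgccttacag
With 150 bases on either side of the summit the first window held 62.8% G and C, and its letters are, from background knowledge and not from an alignment, those of 28S ribosomal RNA, whose genes stand in long tandem arrays. Of its 25-base words, 63.5% had a further copy in the C57BL/6J assembly. The part of reads from other copies in its signal was not tested. The window in the CabZ Het libraries was soft-masked, the mark of repeats in the assembly, over 99.0% of that length, and the window in the CabZ KO libraries over 98.7%.

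The libraries differed in background before any comparison of genotypes. The number of reads is not known, and the background pileup, the mean number of fragments over a base that MACS2 used for a library, was recovered from the steps between its fold enrichment values. It was 1.54, 1.75 and 2.41 in CabZ Het A, B and C, against 1.14, 1.22 and 1.03 in KO A, B and C, so every CabZ Het library lay above every CabZ KO library and background and genotype cannot be told apart. Of 15 oocyte genes, between 4 and 13 had a peak within 500 bp of their 5′ end in a library, and Zp3, which encodes a zona pellucida protein, had one in all 6. Of 13 granulosa and cumulus cell genes, 0 to 3 did (Inhba, Star and Ptgs2 in at least 1 library), with Foxl2, Amh, Fshr and Cyp19a1 at 0. None of 6 blood and stroma genes had one.

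CabZ KO libraries had fewer distal peaks than CabZ Het libraries, and distal peaks were a smaller share of their lists. CabZ Het A, B and C held 7502, 9849 and 16912 distal peaks, and CabZ KO A, B and C held 5358, 2307 and 3696. The groups did not overlap. The mean was 11421 ± 4898 in CabZ Het and 3787 ± 1528 in CabZ KO oocytes (SD, n = 3 each; p = 0.1 by a two-sided exact permutation test, which cannot give less with 3 libraries against 3). Without CabZ Het C, which had the most peaks, the difference of -7634 was -4889.

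As a share of autosomal peaks, distal peaks made up 17.9% in CabZ Het A (95% Wilson interval 17.6 to 18.3), 15.5% in Het B (15.2 to 15.8) and 15.7% in Het C (15.5 to 15.9). They made up 12.1% in CabZ KO A (11.8 to 12.4), 13% in KO B (12.5 to 13.5) and 13% in KO C (12.6 to 13.4). Intervals cover counting error only. The difference of the means, 16.4 ± 1.37% against 12.7 ± 0.490%, was -3.67 percentage points (exact permutation test, p = 0.1, n = 3 each). When only the 17811 strongest peaks of each library were kept, the shares were 15.9, 13.1 and 11.4% in CabZ Het and 10.6, 13 and 11.9% in CabZ KO libraries. The groups then overlapped, and the difference was -1.62 points (exact permutation test, p = 0.4). The part of the unequal backgrounds in the smaller share was not tested beyond this.

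**Figure D1:**
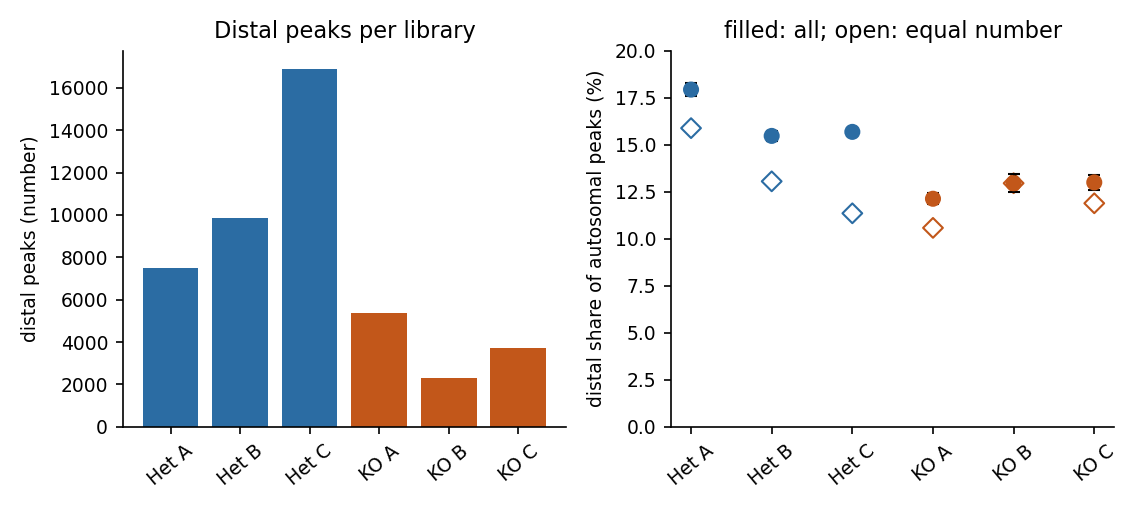
Left, the number of distal peaks in each CabZ Het (blue) and CabZ KO (orange) library. Right, distal peaks as a share (%) of autosomal peaks, with all peaks (filled, bars are 95% Wilson intervals) and with the 17811 strongest peaks of each library (open); the genotypes are apart with all peaks, and with equal numbers the open points of CabZ Het C and KO A to C lie between 10.6 and 13%.

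Distal peaks were sparse for the space they had. Bases more than 50 kb from a listed gene made up 739 Mb, or 30.8% of the 2396 Mb of sequenced autosomal bases. Non-unique alignments had been left out before peaks were called, and bases without unique alignments were not taken out of this space. Distal peaks occurred at 10.2, 13.3 and 22.9 per Mb in CabZ Het A, B and C and at 7.25, 3.12 and 5.00 per Mb in CabZ KO A, B and C. The density over that of the remaining autosomal bases was 0.490, 0.410 and 0.417 in CabZ Het and 0.309, 0.334 and 0.335 in CabZ KO libraries. Density was lower in the distal space in 6 of 6 libraries (two-sided exact sign permutation test over 6 libraries, p = 0.031, the smallest it can give).

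The mean density of each genotype fell from class to class of distance inside the distal space, with CabZ KO B as an exception among the libraries (0.390 at 100 to 250 kb and 0.408 at 250 to 500 kb). Relative to the autosomal mean of each library, it was 0.679 ± 0.0303 in CabZ Het and 0.543 ± 0.0167 in CabZ KO oocytes at 50 to 100 kb from a gene, 0.507 ± 0.0474 and 0.383 ± 0.0124 at 100 to 250 kb, 0.457 ± 0.0612 and 0.370 ± 0.0364 at 250 to 500 kb, and 0.382 ± 0.0554 and 0.263 ± 0.0201 beyond 500 kb (SD, n = 3 each). All CabZ KO libraries lay below all CabZ Het libraries in these 4 classes (exact permutation test, p = 0.1 each). This was not particular to the distal space. At 10 to 50 kb from a gene the genotypes were apart in the same direction (1.08 ± 0.0268 against 0.873 ± 0.0112; exact permutation test, p = 0.1). They stayed apart there with equal numbers of peaks (1.04 ± 0.0550 against 0.846 ± 0.0307). Within gene spans the order was the opposite, with 1.12 ± 0.0380 in CabZ Het and 1.30 ± 0.0145 in CabZ KO oocytes (exact permutation test, p = 0.1). With equal numbers of peaks the 50 to 100 kb class still had no overlap (0.589 ± 0.0546 against 0.511 ± 0.0288, n = 3 each), whereas the other 3 distal classes overlapped. The values were then 0.411 ± 0.0679 and 0.356 ± 0.0366 at 100 to 250 kb (exact permutation test, p = 0.4) and 0.349 ± 0.101 and 0.342 ± 0.0606 at 250 to 500 kb (exact permutation test, p = 0.9). Beyond 500 kb they were 0.297 ± 0.0940 and 0.236 ± 0.0369 (exact permutation test, p = 0.4).

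**Figure D2:**
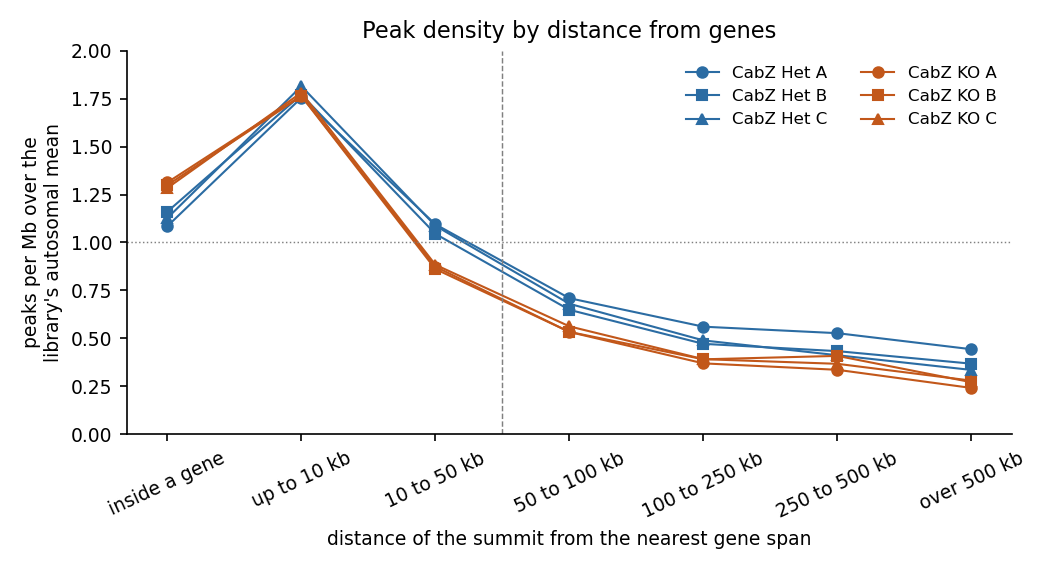
Peaks per Mb divided by the autosomal mean of the same library (y axis) for 7 classes of distance from the nearest gene span (x axis), with 1 line per library, CabZ Het in blue and CabZ KO in orange; the distal classes are right of the dashed line. In all libraries the last class lies lowest, between 0.241 and 0.443.

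The gene table leaves out genes that other annotations hold. In RefSeq, 11.8 to 13.9% of the distal summits of a library lay inside a gene, and 42.5 to 48.8% were also more than 50 kb from every RefSeq gene. The name distal is used here for distance from the genes of the table alone.

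Distal peaks were narrow and close to the calling threshold. Their median width was 598, 774 and 740 bp in CabZ Het A, B and C, against 713, 524 and 488.5 bp in KO A, B and C, and the groups overlapped (704 ± 93.4 against 575 ± 121 bp, SD, n = 3 each; exact permutation test, p = 0.2). The difference of -129 bp was -340 bp with equal numbers of peaks, -198 bp without CabZ KO A and -85.5 bp without KO C. The lists also differed in their shortest distal peak, at 387, 466 and 418 bp in CabZ Het A, B and C. In CabZ KO A, B and C it was 428, 332 and 297 bp. The part of this lower bound in the median widths was not tested. Median fold enrichment, the pileup at the summit plus 1 over the background plus 1, was 3.94, 3.64 and 3.52 in CabZ Het and 4.21, 4.50 and 3.94 in CabZ KO libraries (3.70 ± 0.216 against 4.22 ± 0.282; exact permutation test, p = 0.2, n = 3 each). With equal numbers of peaks the means were 4.68 and 4.69 (exact permutation test, p = 1.0), and without the added 1 they were 5.18 and 7.06 (exact permutation test, p = 0.1). These medians correspond to 7 to 11 fragments at the summit. Fold enrichment moves in steps of 1 fragment, and a step is larger where the background is lower.

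Compared with the other autosomal peaks of the same library, distal peaks were narrower in 6 of 6 libraries. The mean difference of the medians was -51.4 bp (exact sign permutation test over 6 libraries, p = 0.031). Mean fold enrichment was 4.14 ± 0.309 for distal and 4.33 ± 0.341 for other peaks (SD over 6 libraries), lower in 6 of 6 (exact sign permutation test, p = 0.031). However, the medians were equal in several libraries and the difference of medians did not pass (-0.14; exact sign permutation test, p = 0.5). The 90th percentile was lower in only 3 of 6 libraries (5.10 ± 0.425 against 5.27 ± 0.243; exact sign permutation test, p = 0.25). The means also take in the highest peak of each library, at 26.6 to 72.7 among distal and 767 to 1343 among other peaks. Distal peaks with a fold enrichment over 10 numbered 2 in CabZ Het C and 1 in each other library, against 17 to 36 among other peaks. These are counts and not shares. A library held 2307 to 16912 distal and 15504 to 90915 other peaks, so the counts alone overstate the difference.

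Distal peaks overlapped a peak of another library less often than other peaks, as a raw share that does not allow for peak cover. The share that overlapped a peak of any other library was 49.8, 55.1 and 42.9% in CabZ Het A, B and C, against 65.5, 64 and 56% in KO A, B and C. Over the 6 libraries the difference from other peaks was -11.5 points (55.6 against 67%; lower in 6 of 6; exact sign permutation test, p = 0.031), and it was -12.01 points with equal numbers of peaks. Each share is counted against the other libraries, so the 6 values are not independent. The p-values for overlap do not allow for this. The higher share in CabZ KO libraries (61.8 ± 5.09 against 49.3 ± 6.11%, n = 3 each; exact permutation test, p = 0.1) turned to 46.4 ± 9.62 against 47.8 ± 11.2% when equal numbers of peaks were compared.

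For each ordered pair of libraries, the share of distal summits of one that lay inside a peak of the other was set against the share of distal bases that those peaks covered. Summits fell into peaks 13.8 to 35.4 times as often as that cover over 30 pairs (median 17.2). For other summits, set against the cover of other bases, the ratio was 7.04 to 16.2 (median 8.81). Relative to cover, the median was thus higher for distal summits, unlike the raw share. The distal ratio was 27.7 to 35.4 for the 6 pairs of CabZ KO libraries, 13.8 to 15.3 for the 6 pairs of CabZ Het libraries and 14.7 to 19.7 for the 18 pairs between genotypes. The pairs share libraries and get no test. With equal numbers of peaks the 3 ranges overlapped, with medians of 50.2, 47.2 and 38.8.

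Overlapping peaks of all libraries were merged into 178543 autosomal regions, of which 30575 held distal summits only and a further 91 held both kinds. Of the distal regions, 22148 (72.4%) were seen in 1 library, 4953 (16.2%) in 2, 2052 (6.71%) in 3, 885 (2.89%) in 4, 408 (1.33%) in 5 and 129 (0.422%) in all 6. Among the other regions 64.1% were seen in 1 library and 1.11% in all 6. Most distal regions were thus a peak of a single pool.

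**Figure D3:**
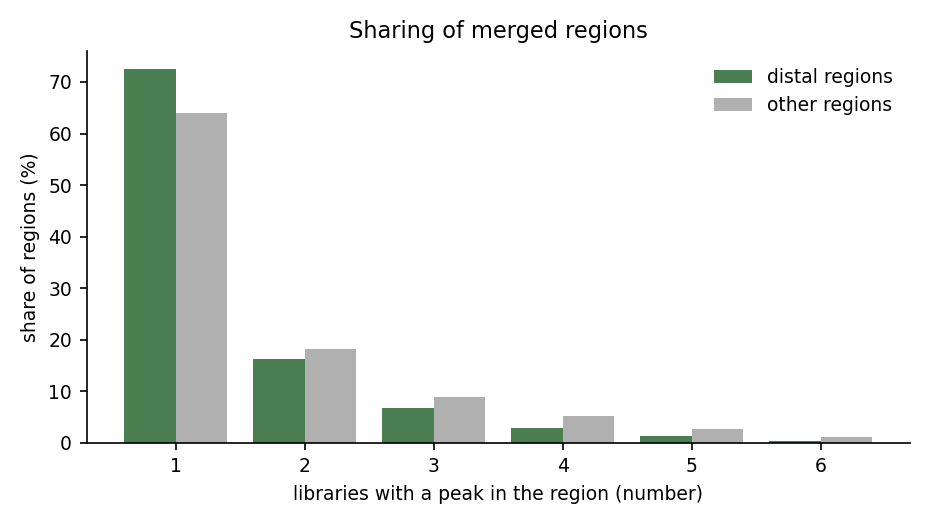
Share of merged regions (%, y axis) by the number of libraries with a peak in the region (x axis), for distal (green) and other (grey) regions; 72.4% of distal and 64.1% of other regions stand at 1 library.

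Counted by genotype, 4658 distal regions (15.2%) had a peak in at least 1 library of each genotype, 21406 (70.01%) in CabZ Het libraries only and 4511 (14.8%) in CabZ KO libraries only. Among other regions these shares were 22.6, 61.1 and 16.3%. Longer peak lists give more regions, and those of CabZ Het libraries were longer on average.

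Regions with a peak in all 3 libraries of a genotype and none of the other were few. There were 568 distal regions with a peak in 3 CabZ Het and 0 CabZ KO libraries, or 1.86% of distal regions, where 2.12% of all regions were of this kind. In the opposite direction there were 15, or 0.0491% of distal regions, where 0.106% of all regions were. Both shares lay below those of all regions. With equal numbers of peaks the counts were 65 and 36. Without 1 library, which lowers the number of peak lists in the condition, the 568 became 2257 (without CabZ Het A), 1486 (Het B) or 910 (Het C), and the 15 became 51 (without CabZ KO A), 101 (KO B), 83 (KO C), 43 (Het C) or 25 (Het B).

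The 5 Het-only regions with the highest median fold enrichment lay on chromosomes 1, 5 and 14. Between Gm19680 and Khdrbs2, the latter encoding an RNA-binding protein, the region chr1:32034982-32036727 had a fold enrichment of 3.94, 6.55 and 7.62 in CabZ Het A, B and C. Khdrbs2 was 136 kb away. Those of chr5:112034247-112039020 were 3.54, 6.18 and 6.16. On chromosome 14, chr14:102071914-102072797 had 6.30, 5.82 and 5.57, and chr14:102130887-102134781, in the same stretch between AC154477.1 and AC080021.1, had 4.72, 6.18 and 5.57. The last, chr1:35213212-35216098, had 5.51, 4.36 and 7.33. Absence from a CabZ KO list means only that no peak was called there.

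Of the KO-only regions, the strongest, chr8:44547128-44548776 with Gm9908 387 kb away, had a fold enrichment of 4.68, 5.85 and 6.89 in CabZ KO A, B and C. Next was chr9:67655288-67656904, 96.4 kb from Tln2, which encodes a cytoskeletal adaptor of focal adhesions, with 6.09, 5.40 and 4.43. The region chr1:45054456-45055559, between Gulp1 and the collagen gene Col5a2, had 6.09, 4.95 and 4.92. The values of chr16:5786130-5787653, 1022 kb from the splicing factor gene Rbfox1, were 4.21, 5.85 and 4.92, and those of chr15:7672754-7673945, 275 kb from Egflam, were 4.68, 5.85 and 4.92. The fold enrichment of these 5 regions thus ranged from 4.21 to 6.89.

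The 129 distal regions open in all 6 libraries were wide, with a median of 2951 bp (505 to 7465 bp) against 611 bp for regions seen in 1 library, a difference that merging itself favours. Their median fold enrichment was 4.72, 5.09 and 4.98 in CabZ Het and 5.15, 4.95 and 4.92 in CabZ KO libraries, whereas for regions seen in 1 library it was 3.94, 3.64 and 3.23 in CabZ Het and 3.75, 4.05 and 3.94 in CabZ KO libraries. A region takes the highest value of its peaks in a library, so merging favours this difference too. The part of merging in it was not tested. They lay a median of 98.5 kb from the nearest gene, compared with 135 kb for all distal regions.

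A single region stood apart from the other 128 by its signal. The region chr3:5860320-5860824, the 28S ribosomal RNA sequence shown above, had a fold enrichment of 34.3, 66.6 and 72.7 in CabZ Het A, B and C, against 36.1, 36.5 and 26.6 in KO A, B and C. It was 109 kb from Gm8797 and 891 kb from the olfactory receptor pseudogene Olfr289-ps1. The genotypes overlapped, because CabZ Het A was below CabZ KO A and B. The log2 difference between CabZ KO and CabZ Het was -0.75 ± 0.24 (SE; limma, adjusted p = 0.375). Without CabZ Het A it was -1.09 and passed (limma, adjusted p = 0.00442). With the libraries centred on their medians it was -0.84 and also passed (limma, adjusted p = 0.0112), and over all alternatives the adjusted p ranged up to 0.803.

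The next 7 regions by median fold enrichment had values between 3.27 and 11.7. On chr13:12871246-12876437, between Gm7042 and the prolactin family gene Prl2c5, fold enrichment was 7.09, 7.27 and 7.92 in CabZ Het and 7.02, 6.30 and 8.36 in CabZ KO libraries. Of the 25-base words of its window, 59.6% had a further copy in the assembly. On chr1:193720143-193724876 it was 4.72, 6.55 and 6.45 in CabZ Het and 6.56, 4.95 and 6.89 in CabZ KO libraries, and none of the words had a further copy. The summit there lay in the RefSeq long non-coding RNA Gm31870, which is not in the gene table.

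Near the start of chromosome 6, chr6:3181409-3184214 had 5.91, 6.91 and 11.7 in CabZ Het and 6.09, 6.30 and 6.40 in CabZ KO libraries, with no listed gene before it and the RefSeq long non-coding RNA LOC115490388 at its summit. The region chr1:89250924-89253559, 97 kb from Sh3bp4, had 5.12, 5.82 and 6.74 in CabZ Het and 7.96, 5.85 and 7.38 in CabZ KO libraries, and no word of its window had a further copy. The remaining 3 lay near Ctnna3 (chr10:65064605-65066656), between Zfp644 and the meiotic gene Hfm1 (chr5:106768607-106775003), and between the neuronal genes Nfasc and Lrrn2 (chr1:132801220-132805466). In the last the CabZ Het values were 5.91, 6.18 and 5.57 and the CabZ KO values 6.56, 6.30 and 4.92. The log2 differences of these 7 regions ranged from -0.32 to 0.28, with standard errors of 0.21 to 0.24, and none passed (limma, adjusted p at least 0.760).

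The 3 widest of the 129 regions were 7465, 7449 and 7127 bp long. They lay between Camk1g and 4631405K08Rik (chr1:193444929-193452393), next to Gm7774 (chr5:126146691-126154139) and next to Marc1 (chr1:184707528-184714654). The farthest from any gene was chr14:82494367-82498378, in the desert between Olfm4 and AC154855.1, 2262 kb from the nearer of them. Its fold enrichment was 3.54, 6.18 and 5.57 in CabZ Het and 4.68, 5.40 and 5.41 in CabZ KO libraries. The next were 678 kb from Grm8, a glutamate receptor gene (chr6:26595273-26597791), and 678 kb from Epha5, an ephrin receptor gene (chr5:83376222-83377538).

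Regions open in all 6 libraries were tested for a difference in log2 fold enrichment with limma across all 1770 such regions of the autosomes. Of the 129 distal regions, 0 passed an adjusted p of 0.05, against 0.113% of all regions that were higher and 0.0565% that were lower in CabZ KO libraries. At an unadjusted p under 0.05 there were 14 distal regions (10.9%) and 120 regions in all (6.78%). The smallest adjusted p of a distal region was 0.115. When fold enrichment was computed without the added 1, which shifted the median log2 difference of all 1770 regions from 0.06 to 0.32, 8 distal regions and 152 of all were called.

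All 3 CabZ KO values lay above all 3 CabZ Het values in 7 distal regions (5.43%), compared with 8.81% of all regions, and below them in 10 (7.75%), compared with 3.90% of all regions. The 5 distal regions with the smallest p in each direction are described here without a call. Between Ptbp2 and Rwdd3, chr3:120523414-120524521 had 3.15, 2.91 and 3.52 in CabZ Het and 7.02, 4.50 and 5.41 in CabZ KO libraries (log2 difference 0.80 ± 0.22; limma, adjusted p = 0.163, range over the alternatives 0.000560 to 0.670). Its summit lay in the RefSeq long non-coding RNA 6530403H02Rik. The others with higher values in CabZ KO libraries lay next to Tmtc1 (chr6:148517676-148521828; 3.54, 4.36 and 4.10 against 7.49, 6.75 and 5.41), near Cdh7, a cadherin gene, between Calm2 and Epcam, and near Zfp36l2, which encodes an RNA-binding protein with a role in oocyte mRNA decay. Their adjusted p ranged from 0.163 to 0.661 over these 5 regions.

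Lower values in CabZ KO libraries were found first between Gm28548 and Cpne4, a copine gene, where chr9:104477142-104482291 had 8.27, 6.18 and 8.50 in CabZ Het and 4.21, 4.05 and 4.43 in CabZ KO libraries (log2 difference -0.84 ± 0.21; limma, adjusted p = 0.115). This region passed when the libraries were centred on their medians or quantile normalised, with adjusted p from 0.00207 to 0.427 over the alternatives. The region on chromosome 3 described above was second. Next to Glul, the gene for glutamine synthetase, chr1:153959823-153964447 had 7.87, 5.82 and 6.74 in CabZ Het and 4.21, 4.95 and 3.94 in CabZ KO libraries (log2 difference -0.64 ± 0.21; limma, adjusted p = 0.417). The remaining 2 lay next to Gm9195 and between Sphkap and 4933436I20Rik, with adjusted p of 0.676 and 0.700 in limma.

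**Figure D4:**
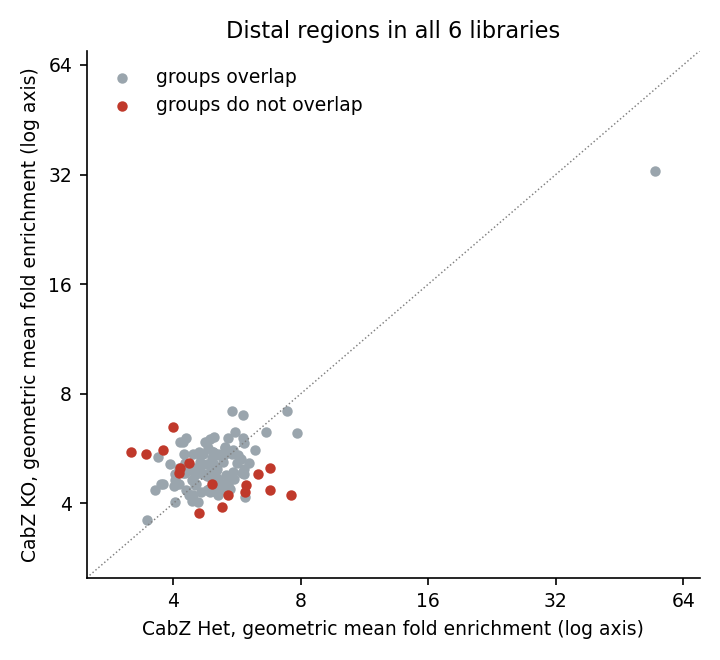
Geometric mean fold enrichment of the 3 CabZ Het libraries (x axis) and the 3 CabZ KO libraries (y axis), both on log axes, for the 129 distal regions open in all 6 libraries; red points mark the 17 regions in which the genotypes did not overlap. The single point at the upper right is the chromosome 3 region, and all other regions have medians of at most 7.18.

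Distal peaks were spread unevenly over chromosomes in all libraries, and so were the other peaks. Relative to the mean distal density of each library, chromosome 1 had 2.16, 1.93 and 1.46 in CabZ Het and 1.81, 2.23 and 1.55 in CabZ KO libraries. Chromosome 10 had 1.28 to 2.14 in the 6 libraries. Chromosome 7 had only 0.222 to 0.465, and chromosome 12 had 0.207 to 0.677, with CabZ Het A the lowest. For the other peaks, relative to their own mean density, chromosome 1 had 1.19 to 1.93, chromosome 10 1.07 to 1.54, chromosome 7 0.381 to 0.708 and chromosome 12 0.321 to 0.817. No chromosome could pass a test between genotypes, because 3 libraries against 3 cannot give a p under 0.1. Over the 19 chromosomes the adjusted p was at least 0.633 (exact permutation tests, n = 3 each). The genotypes did not overlap on chromosomes 3, 9 and 17 (exact permutation test, p = 0.1 each). CabZ KO libraries were lower on chromosome 3 (mean 0.751 against 0.882). They were higher on chromosomes 9 (1.03 against 0.656) and 17 (0.731 against 0.445). Chromosome 1 also held 40 of the 129 regions open in all 6 libraries (31.0%).

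**Figure D5:**
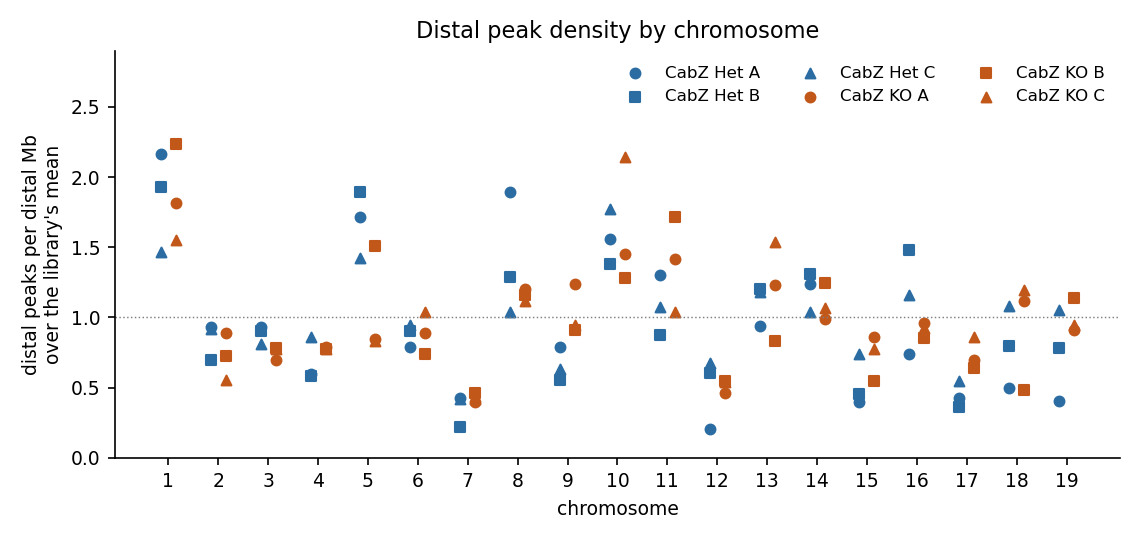
Distal peaks per distal Mb of each chromosome divided by the mean of the same library (y axis), by chromosome (x axis), with 1 point per library, CabZ Het in blue and CabZ KO in orange. All 6 libraries lie between 1.46 and 2.23 on chromosome 1 and between 0.222 and 0.465 on chromosome 7.

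The distal space was made of 3110 stretches with a median length of 102 kb, of which 2303 held a distal region and 115 a region open in all 6 libraries. The stretch with the most regions of the latter kind lay on chromosome 1 between 4631405K08Rik and Plxna2, which encodes a plexin receptor for axon guidance (chr1:193560176-194568217). It held 265 regions in 1.01 Mb, or 263 per Mb, compared with 41.4 per Mb over all distal stretches, and 5 of them were open in all 6 libraries. Its peaks numbered 119, 126 and 135 in CabZ Het A, B and C, against 74, 52 and 51 in KO A, B and C. This was 5.85 to 11.6 times the mean distal density of the library in CabZ Het and 10.1 to 16.5 times in CabZ KO libraries.

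The desert between Pard3, a cell polarity gene, and Nrp1, the neuropilin gene, on chromosome 8 held 100 regions in 0.646 Mb, at 3.95 to 8.92 times the mean density. Between Sec16b and Brinp2 on chromosome 1 there were 63 regions, at 2.08 to 4.95 times the mean. The remaining stretches of the 5 with most regions open in all libraries were those between Gm7895 and Gm5264 on chromosome 1 and between AC160120.1 and AC154757.1 on chromosome 14, with 54 and 49 regions. The longest stretch, 6.73 Mb between 1700128A07Rik and Tpm3-rs7 on chromosome 14, held 341 regions, whereas the next, 4.81 Mb between Gm40548 and Gm6863 on chromosome 12, held 26, at 0.0205 to 0.266 times the mean density.

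Most genes nearest to distal regions had a low RNA level in GV oocytes. RNA levels were the mean FPKM of 4 ZH Het libraries, which the paper describes as scaled to the exon model. Whether the length used for a gene also held its introns was not tested here. Of the 117 genes nearest to the regions open in all 6 libraries, 15.4% had at least 1 FPKM, close to the 15.6% of the 5040 genes that border distal space and below the 22.6% of all genes of the table. Of 119 developmental regulator genes that often flank gene deserts, 51 border distal space, and 1.10% of distal bases lay nearest to one of them. Of all distal regions 1.38% did, and 4 of the 129 open in all 6 libraries (3.10%). These 4 included regions near Bmp4, a ligand of the bone morphogenetic protein pathway (chr14:46319584-46321141, 63.0 kb away), Lmo3 (chr6:138297770-138300903) and Lmo4 (chr3:144114294-144117291). The Bmp4 region had 3.94, 5.46 and 4.10 in CabZ Het and 5.62, 4.95 and 5.90 in CabZ KO libraries, and Bmp4 itself was at 0.01 FPKM, the constant that had been added to every value.

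The sequence at distal summits, read with 150 bases on either side, was poorer in G and C and richer in repeats than at other peaks. GC content was 42.8, 43.6 and 44.9% in CabZ Het A, B and C, against 44.5, 43.01 and 42.6% in KO A, B and C. The mean difference from other peaks of the same library was -2.81 points (43.6 against 46.4%). Soft-masked bases made up 32.4 to 34.6% of distal windows, 6.06 points more than in other peaks (33.6 against 27.5%). Both differences were seen in 6 of 6 libraries (exact sign permutation tests, p = 0.031 each). Against all 2452222 windows of this length in the distal space, with 39.6% GC and 39.1% soft-masked bases, distal summits were richer in G and C and poorer in repeats. The part of the left-out non-unique alignments in this was not tested. GC rose with sharing, from 42.7% in distal regions of 1 library to 46.9% in those of all 6.

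All 11 letter strings searched at summits differed between distal and other peaks in the same direction in 6 of 6 libraries (exact sign permutation tests, Benjamini-Hochberg adjusted p = 0.031 each). Higher in distal peaks were CCAAT (42.2 ± 0.995 against 35.6 ± 0.668%), TAATTG (19.1 ± 1.34 against 13.8 ± 0.817%), TAATTA of the LHX type (10.5 ± 0.755 against 8.57 ± 0.752%), TGANTCA (9.92 ± 0.501 against 8.99 ± 0.164%) and CCACNAGGG (3.12 ± 0.459 against 2.25 ± 0.221%; SD over 6 libraries). Lower were the promoter elements GGGCGG, the GC box (2.40 ± 0.376 against 6.04 ± 0.932%), and GCGCATGCG of the NRF1 site (0.0584 ± 0.0494 against 0.199 ± 0.0414%), together with TGACGTCA of the CRE, CACGTG of the E-box, TAATCC of the OTX and OBOX type and TCAAGGTCA of the NR5A and ESRR type. The libraries share peaks, so that these are not 6 independent sets of sequences. A match is a description of letters and not a bound site.

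The windows of the distal space as a whole, with those inside peaks included, give a background level. They were not matched to the summits in composition, with 39.6% GC and 39.1% soft-masked bases against 43.6 and 33.6% at distal summits. The part of composition in the differences below was not tested. CCACNAGGG was in 0.706% of them, and TAATTG in 17.0%, so that distal peaks exceeded both in 6 of 6 libraries. CCAAT was in 44.8% and TAATTA in 12.5%, above the distal peaks in all 6 libraries.

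The CTCF core and the NOBOX type letters often stood together in nearly the same surrounding sequence. In several regions TAATTG followed CCACNAGGG on the same strand after exactly 19 bases, and this spacing was noticed in the data and then counted. The sequences below show 60 bases on the strand of the pair, 5′ to 3′, for the first 6 distal regions when those with the pair at the strongest summit are ordered by number of libraries and then by median fold enrichment, with both letter strings in capitals.
Next to Tmtc1, chr6:148519715-148519774, minus strand: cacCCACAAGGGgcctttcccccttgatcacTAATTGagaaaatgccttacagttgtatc
Near Grm8, chr6:26596956-26597015, minus strand: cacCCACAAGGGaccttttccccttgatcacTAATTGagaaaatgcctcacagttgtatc
Chromosome 1, chr1:143860919-143860978, plus strand: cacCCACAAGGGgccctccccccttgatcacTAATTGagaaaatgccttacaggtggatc
Chromosome 5, chr5:100283087-100283146, plus strand: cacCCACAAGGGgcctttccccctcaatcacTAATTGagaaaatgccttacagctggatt
Chromosome 10, chr10:108108883-108108942, minus strand: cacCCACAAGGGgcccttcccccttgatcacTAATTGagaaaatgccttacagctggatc
Chromosome 1 again, chr1:77096111-77096170, minus strand: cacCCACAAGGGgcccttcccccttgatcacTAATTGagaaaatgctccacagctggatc
The letters around both strings are nearly the same in all 6, which lie on 4 chromosomes. The region labelled by Grm8 lies 678 kb from that gene, which is only its nearest listed gene. The region of the 3 CabZ KO libraries on chromosome 8, shown above, holds the same pair.

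The spaced pair was present at 87, 163 and 277 distal summits of CabZ Het A, B and C and at 109, 42 and 57 of CabZ KO A, B and C. It was found at 1.64 ± 0.293% of distal summits and 0.792 ± 0.168% of other summits (SD over 6 libraries), and in 0.101% of all windows of the distal space. Of distal summits with CCACNAGGG, 45.3 to 62.7% held the pair, and in 66.1 to 88.1% the CCACNAGGG letters were soft-masked. Without the windows that hold the pair, CCACNAGGG was at 1.5 ± 0.290% of distal and 1.47 ± 0.122% of other summits, higher in 3 of 6 libraries. The excess over other summits thus did not stay. In each library CCACNAGGG was still at 1.10 to 1.81% of distal summits, above the 0.706% of all windows of the distal space. The excess of TAATTG over other summits stayed, at 17.8 ± 1.23 against 13.1 ± 0.783%. Its excess over the distal space did not stay in every library. CabZ Het A (16.6%) and Het C (16.3%) were then below the 17.0% of all windows of the distal space. The pair was at 1.48 ± 0.281% of distal summits in CabZ Het and 1.80 ± 0.247% in CabZ KO oocytes, and the libraries overlapped.

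From 1 to 5 libraries, the pair was more common at distal regions seen in more of them. It was at the strongest summit of 0.799% of distal regions seen in 1 library, 1.66% of those in 2, 2.73% of those in 3, 4.29% of those in 4 and 4.66% of those in 5, and of 3 of the 129 in all 6 (2.33%). Among other regions its share also rose with sharing, from 0.376% in 1 library to 1.46% in 5 and 1.52% in 6. Of the 129 strongest windows of regions open in all libraries, 28 had a further copy in the assembly for more than 50% of their 25-base words and 47 had none for any word.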

How the data were processed

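The 6 peak lists had been deposited as the authors called them with MACS2, 1 library at a time, on mm10 alignments (Bowtie2 2.3) without PCR duplicates, mitochondrial or non-unique alignments. Column 7 of the deposited lists is a fold enrichment ratio over 1 genome background, and columns 8 and 9 are -log10 p and -log10 q values. The authors' FPKM values were used for gene positions and levels. Read numbers were not used here, so depth limits precision to an unknown degree. GRCm38.p6, the same build, gave sequences (RefSeq).

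Summits, distances and merged regions were computed in Python 3.11.15 (numpy 2.4.6, pandas 2.3.3). Libraries were compared by exact permutation tests and regions open in all 6 libraries by limma 3.58.1 in R 4.3.3 on log2 fold enrichment, tested on simulated data. There limma called 24 of 100 regions changed 1.5-fold and 82 of 100 changed 2-fold, with 4 false calls. Most 1.5-fold changes were thus missed. Replicate letters did not pair the libraries (correlations of deviations -0.0691, 0.0110 and -0.0136).

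Regions were named by rule: chromosome 18 left out, the 8 strongest, 3 widest, 3 farthest and 5 with the smallest p in each direction among regions in all 6 libraries, and the 5 strongest of each genotype-only set. Members and lists were chosen with earlier results of these data known.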

Additional observations from a re-analysis of the deposited data

How the results depend on the processing

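The lower distal share, number and width in CabZ KO libraries kept their direction, though not their size, under every alternative run (20 or 100 kb, genes of all 4 tables, RefSeq genes, a -log10 q of at least 5, equal numbers of peaks, no chromosome ends, each library left out); 3 libraries against 3 cannot give a p under 0.1. The letters do not pair the libraries. With a replicate block the differences were -7634 distal peaks, -3.67 points of share, -129 bp, 0.52 of fold enrichment and 12.5 points of overlap (exact sign permutation tests, smallest p 0.25), and limma with the block called 0 distal regions, as without it, and 1 higher and 0 lower among all 1770 regions in place of 2 and 1. The higher overlap in CabZ KO libraries turned to -1.40 points with equal numbers of peaks.

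Leaving out 1 library, differences between distal and other peaks ranged from -54.9 to -44.3 bp in width, -12.0 to -10.8 points in overlap, -2.88 to -2.72 points in GC and 5.66 to 6.48 points in soft-masked bases. With 5 libraries no p can be under 0.0625, so 0 letter strings passed. At a -log10 q of at least 5 the overlap difference was -8.01 points (p = 0.0625, exact sign permutation) and 7 letter strings passed. Overlap shares of the libraries are not independent of each other.

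The 568 Het-only regions became 981 at 20 kb, 330 at 100 kb, 268 with RefSeq genes, 16 at a -log10 q of at least 5, 65 with equal numbers of peaks, 108 with summits within 150 bp, and 630 to 2257 without 1 library (2257 without CabZ Het A, 1486 without Het B and 910 without Het C). The 15 KO-only regions became 23, 0, 36 and 9 at 20 kb, at the stricter q, with equal numbers and with summits within 150 bp, and 18 to 101 without 1 library (the highest without CabZ KO B, 83 without KO C, 51 without KO A, 43 without Het C and 25 without Het B). Distal regions called by limma numbered 2 after centring, 1 after quantile normalisation, 1 with a trend, 8 without the added 1 and 0 to 1 without 1 library (1 without CabZ Het A). The causes were not tested. Equal-number values by distance and the spaced pair were chosen after seeing the data. Low pileups, of 7 to 11 fragments at a median distal summit, limit all of these counts.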

Other observations

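The distance rule cut through a continuous population. Summits 40 to 50 kb from a gene, just outside it, numbered 6726 over the 6 libraries with a median width of 719 bp, and those 50 to 60 kb away, just inside it, numbered 5098 with a median of 721 bp. Distal stretches of at least 1 Mb numbered 140, with 33.0 regions per Mb compared with 45.1 per Mb in shorter stretches.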
